A study of Ovis aries with 15 samples.

Results

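The genes described here are 8 genes by which fat cells are usually recognised, or which break down their stored fat: ADIPOQ, LEP, PLIN1, PLIN4, CIDEC, FABP4, PNPLA2 and LIPE. They were taken by gene symbol from the 24691 features of a table of RNA sequencing reads from the sheep mammary gland. The symbols of 7 genes stood in the table as such, and LIPE was found as HSL, a synonym that RefSeq gives for it. Needle biopsies of mammary parenchyma came from 2-year-old Romney ewes in their first pregnancy and lactation, at day 135 of gestation (late pregnancy) and at day 15 after birth (lactation). Each library was made from pooled RNA of several ewes, with 9 pools in late pregnancy and 6 in lactation. The study's methods state that tissue was taken in late pregnancy and again in lactation, so both states draw on the same group of ewes. Ewes were picked at random for each pool, and the main tests treat the pools as independent. By the deposited design text 3 ewes went into each pool of late pregnancy and 2 into each pool of lactation, whereas the study's methods give 3 for both. All ewes grazed under the same conditions and differed in the feed of their own dams in early gestation, which was ad libitum (HM), maintenance (MM) or sub-maintenance (LM), while all these dams were on maintenance feed in later gestation. Each of these 3 groups has 3 pools in late pregnancy and 2 in lactation.

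Fat cells of the mammary fat pad store triacylglycerol in a large droplet that is coated with proteins of the perilipin family. When hormones raise cyclic AMP, the droplet coat is phosphorylated, adipose triglyceride lipase (the product of PNPLA2) removes the first fatty acid, hormone-sensitive lipase (LIPE) the next and monoacylglycerol lipase (MGLL) the last. During pregnancy the epithelium grows into the fat pad, and during lactation the epithelial cells make and secrete fat droplets of their own, so that several proteins of lipid handling are made by both cell types.

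Too few reads were found on 2 of the 8 genes for a test between the states. PLIN1, which codes for the main coat protein of the fat cell droplet, had 124 reads on its exons over the 9 late pregnancy libraries and 22 over the 6 lactation libraries, with at most 8 in any lactation library and fewer than 10 in 9 of the 15 libraries. LEP, which codes for the satiety hormone leptin, had 25 reads in all, with at most 3 in 14 libraries and none in 5. The remaining 6 genes passed the filter, on 196 reads for CIDEC, 409 for PLIN4, 933 for LIPE, 2241 for ADIPOQ, 4079 for PNPLA2 and 75305 for FABP4. CIDEC and PLIN4 passed through their late pregnancy libraries, and their lactation libraries alone would not have passed. All exon reads of the 8 genes were placed at a single position of the genome, and no other feature of the table overlapped them.

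The genes lie on 8 different chromosomes of the sheep assembly to which the deposited table refers. ADIPOQ spans positions 198618162 to 198631178 of chromosome 1, LEP 92508367 to 92524553 of chromosome 4, PLIN4 17191753 to 17200448 of chromosome 5 and FABP4 57536525 to 57541042 of chromosome 9. LIPE spans 49938845 to 49956263 of chromosome 14, PLIN1 20192837 to 20204310 of chromosome 18, CIDEC 16766546 to 16775485 of chromosome 19 and PNPLA2 49310120 to 49319551 of chromosome 21. All are protein-coding genes, and the reads tested are those on their annotated exons. The exons of FABP4 add up to 399 bases, a whole number of codons that leaves little room for untranslated sequence, whereas those of ADIPOQ add up to 2550 bases.

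Levels of different genes can be compared only per length of exon, which the scale of reads per kilobase of exon and 1000000 reads (RPKM, here with TMM library sizes) provides. On this scale FABP4, which codes for the fatty acid carrier of fat cells, had by far the highest level of the 8 genes, at 806 ± 164 RPKM in late pregnancy (SD, n = 9) and 834 ± 94.96 in lactation (SD, n = 6). PNPLA2 came next with 12.6 ± 2.17 and 12.1 ± 2.54 RPKM, and its range met neither that of FABP4 nor that of ADIPOQ in either state. ADIPOQ, which codes for the fat cell hormone adiponectin, had 3.96 ± 1.98 and 2.95 ± 1.28 RPKM, and LIPE had 1.61 ± 0.278 and 2.64 ± 0.666. The ranges of ADIPOQ and LIPE overlapped in both states, and LIPE reached down into the range of CIDEC in late pregnancy but not in lactation. CIDEC, PLIN4 and PLIN1 lay below 1 RPKM on average in both states and overlapped each other throughout. LEP stood last with 0.0371 ± 0.0348 and 0.0284 ± 0.0346 RPKM. FABP4 also ranked among the abundant genes of the whole gland, in place 92 of 24691 features by mean deposited RPKM in late pregnancy and place 70 in lactation, whereas ADIPOQ was in places 7608 and 8446.

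FABP4 alone held 90.3% of the exon reads of the 8 genes in late pregnancy and 90.5% in lactation. A summed level of the 8 genes is therefore a level of FABP4, a gene that capillary endothelial cells and macrophages also express. Of the genes best known from fat cells alone, ADIPOQ had reads in all 15 libraries, PLIN1 in 14 and LEP in 10.

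**Figure D1:**
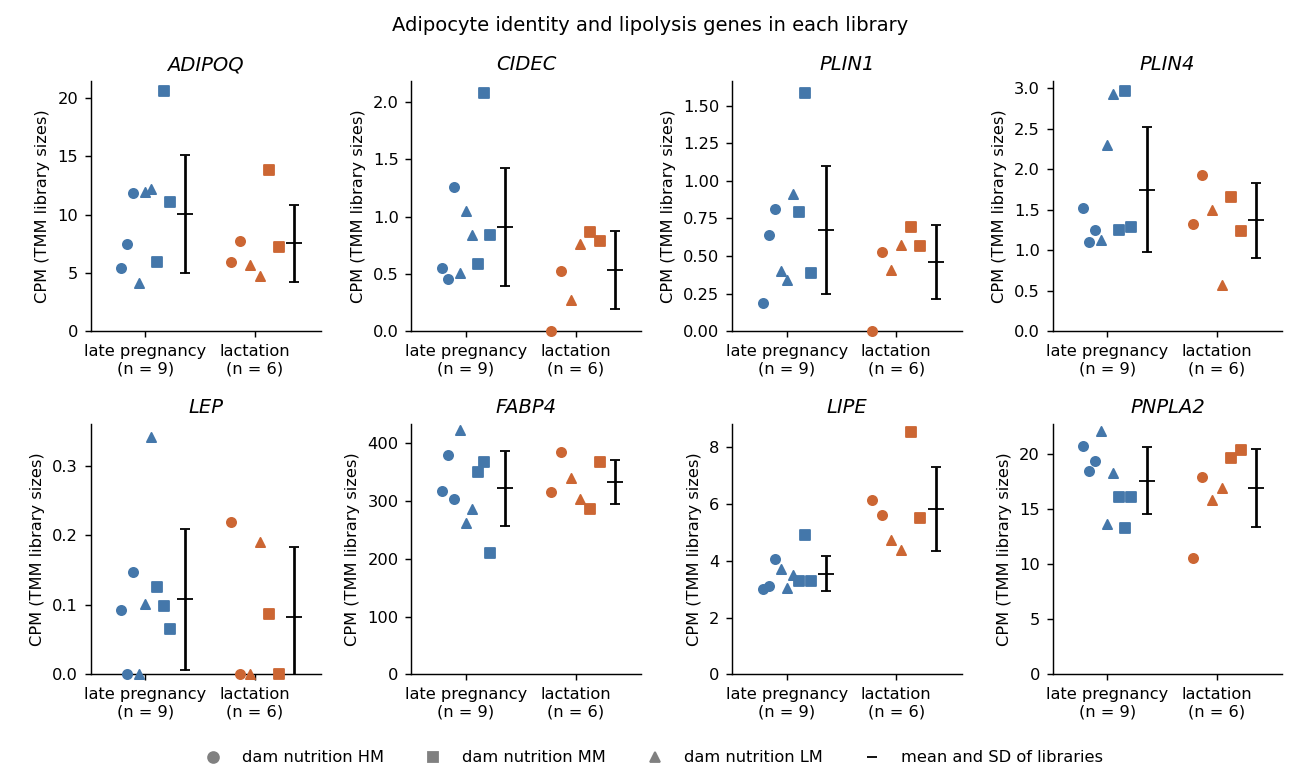
Level of each of the 8 genes in every library, in counts per 1000000 reads with TMM library sizes (CPM, vertical axes from 0), for 9 late pregnancy pools (blue) and 6 lactation pools (orange), with marker shapes for the feed of the ewes' dams and bars for the mean and SD. In LIPE the lactation pools mostly lie above those of late pregnancy, while in the other genes the ranges of the states overlap widely, and a single MM pool stands out above the others in ADIPOQ in each state.

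ADIPOQ did not differ detectably between the states. Its level in late pregnancy was lowest at 4.12 CPM, with a median of 11.1 and a highest value of 20.6. In lactation it was lowest at 4.76, with a median of 6.57 and a highest value of 13.8. The late pregnancy values thus enclosed those of lactation, and the highest library of both states was a pool of the MM group. The log2 change from late pregnancy to lactation was -0.35 (SE 0.32, 95% interval -1.02 to 0.33, adjusted p = 0.347 in edgeR's quasi-likelihood test). Without pool 2 of the MM group in late pregnancy the change was -0.15 (adjusted p = 0.658), and without pool 1 of the MM group in lactation it was -0.67 (adjusted p = 0.0950). In a bulk sample, fewer cells of a type and less RNA per cell cannot be told apart, and this applies to every level given here.

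LEP was at or near 0 in both states. The highest count in late pregnancy was 9 reads, in pool 3 of the LM group, and no lactation library had more than 1 read. A change of LEP was not detectable at this depth.

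The genes of the droplet coat were low in both states, and PLIN4 and CIDEC showed no detectable difference. PLIN1, left out of the main test, had from 4 to 32 reads in late pregnancy with a median of 11, and from 0 to 8 in lactation with a median of 3. In CPM, which allows for library size, these medians were 0.640 and 0.546. Its log2 change in edgeR was -0.46 without the filter (adjusted p = 0.455) and -0.60 on whole-gene reads (adjusted p = 0.229). The highest count of PLIN1 was in pool 2 of the MM group in late pregnancy and in pool 1 of that group in lactation, the libraries that were also highest in ADIPOQ. PLIN4, a perilipin that binds small and growing droplets, had 1.10, 1.29 and 2.97 CPM as the lowest, median and highest value in late pregnancy. In lactation these values were 0.571, 1.41 and 1.93 CPM, and the lowest lay below the late pregnancy range. Its log2 change was -0.36 (SE 0.31, adjusted p = 0.314). CIDEC, which codes for a protein that fuses droplets into the single large droplet of white fat cells, had 0.457, 0.836 and 2.08 CPM in late pregnancy and 0, 0.644 and 0.870 in lactation. Its highest late pregnancy value was again in pool 2 of the MM group, and 1 lactation library had no read. The log2 change of CIDEC was -0.61 with a wide interval from -1.54 to 0.31 (SE 0.44, adjusted p = 0.227). It was -0.36 without pool 2 of the MM group of late pregnancy (adjusted p = 0.406) and -0.18 in limma (adjusted p = 0.301). The limma value is on RPKM plus 1, which shrinks the change of a gene at this low level.

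FABP4 showed no detectable difference between the states. Its values in late pregnancy were 209 CPM at the lowest, 317 at the median and 422 at the highest, and those in lactation were 286, 328 and 384. All lactation libraries lay within the range of late pregnancy. The log2 change was 0.05 (SE 0.12, 95% interval -0.20 to 0.30, adjusted p = 0.725). The sign of this change is not fixed, since it was -0.10 with upper quartile scaling and 0.52 (adjusted p = 0.0042) in limma on quantile-normalized RPKM.

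Of the lipases, LIPE was higher in lactation and PNPLA2 showed no detectable difference. PNPLA2 had 13.3, 18.3 and 22.1 CPM as the lowest, median and highest value in late pregnancy, and in lactation a median of 17.4 and a highest value of 20.4. The lowest lactation library, pool 1 of the HM group, was the only one outside the late pregnancy range, and the log2 change was -0.03 (SE 0.13, 95% interval -0.30 to 0.24, adjusted p = 0.853). LIPE had 3.00, 3.30 and 4.90 CPM in late pregnancy against 4.38, 5.58 and 8.53 in lactation. Only the highest late pregnancy library, pool 2 of the MM group, reached into the lactation range, and the highest lactation library was pool 1 of the MM group. LIPE was 1.68-fold higher in lactation, with a log2 change of 0.74 (SE 0.15, 95% interval 0.43 to 1.06, adjusted p = 2.1e-04). Leaving out any 1 of the 15 libraries kept this change between 0.57 and 0.81, with an adjusted p of at most 0.0019.

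LIPE was thus the only called gene of the 6 tested, higher in lactation, and none was called lower. Over all 13345 genes tested, 68.4% were called, 33.1% higher and 35.2% lower in lactation. The median log2 change was -0.19 over the 6 genes and -0.03 over all genes. The 6 include CIDEC and PLIN4, which passed the filter through late pregnancy, where their mean levels were higher. None of the 6 genes had states without overlap, compared with 40.2% of all genes.

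The direction of these changes rests on how the libraries are scaled. A few milk protein genes take a large part of the reads in lactation, and with library size as the sole scaling the log2 change was -1.16 for LIPE, -1.86 for FABP4, -1.94 for PNPLA2, -2.26 for PLIN4, -2.27 for ADIPOQ and -2.50 for CIDEC. All 6 genes were then called lower, and so were 12705 of all genes, with a median change of -1.94. Of all calls, 51.6% were lower with TMM, 63.7% with upper quartile scaling, 68.1% with library sizes that leave out 7 milk protein genes and 97.3% with plain library sizes. Relative to the median of all genes, LIPE stood 0.77 above that median with TMM and 0.78 above it with plain library sizes. Both scalings shift all genes nearly alike, so this likeness is built in. In limma on quantile-normalized RPKM plus 1, LIPE stood 0.60 above the median and FABP4 0.57 above it. With TMM the value of FABP4 was 0.08. Adding 1 RPKM shrinks the changes of genes at a few RPKM or less, such as LIPE.

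**Figure D2:**
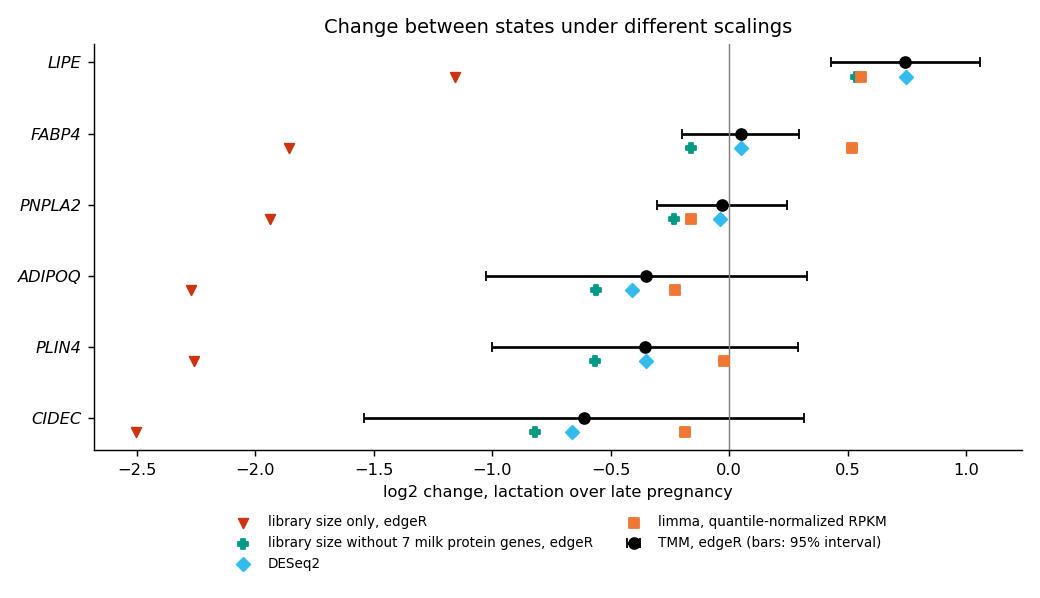
Log2 change from late pregnancy to lactation of the 6 genes tested (horizontal axis), with TMM scaling (black, bars for the 95% interval) and with 4 other ways of scaling or testing (coloured). LIPE lies to the right of the other 5 genes in each of the 5 series, and plain library sizes (red) shift all 6 genes below 0. FABP4 comes close to LIPE in limma (0.52 against 0.56), where 1 RPKM was added. That addition shrinks the changes of genes at a few RPKM or less, LIPE among them, but hardly that of FABP4.

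Ratios between 2 genes of the same library do not depend on its scaling, so each gene was also set against ADIPOQ as log2 of the ratio of their exon reads. The ratio of LIPE to ADIPOQ was 1.05 higher in lactation, from -1.36 ± 0.636 in late pregnancy (SD, n = 9) to -0.31 ± 0.262 in lactation (SD, n = 6), with an exact two-sided permutation p of 0.0044 and an adjusted p of 0.0308 over 7 ratios. Late pregnancy ratios ran from -2.07 to -0.15 with a median of -1.54, and those of lactation from -0.70 to 0.05 with a median of -0.32. The upper end of late pregnancy therefore overlapped the lactation range. The adjusted p rose to 0.0699, 0.0559 and 0.0629 without pool 1 of HM, pool 1 of LM or pool 2 of LM of lactation, so this call depends on single libraries. For the other genes the difference of the ratio was 0.41 for FABP4, 0.28 for PNPLA2, 0.07 for PLIN4, -0.02 for PLIN1, -0.41 for CIDEC and 0.64 for LEP, with exact permutation p-values adjusted to between 0.617 and 0.970. Single libraries moved these differences, which without 1 library ran from 0.29 to 0.65 for FABP4, 0.08 to 0.46 for PNPLA2, -0.68 to -0.02 for CIDEC and 0.29 to 0.88 for LEP.

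**Figure D3:**
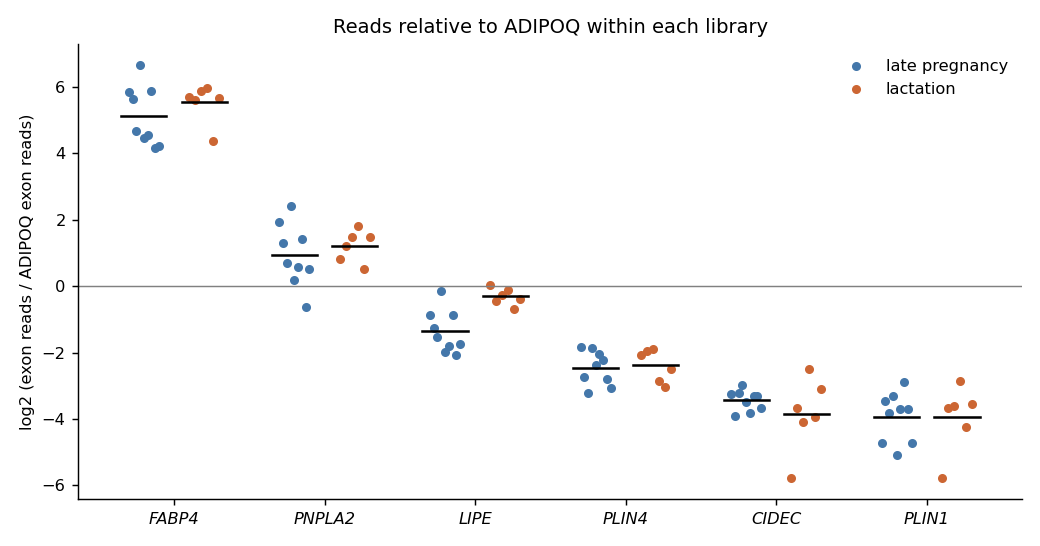
Log2 of the exon reads of each gene over those of ADIPOQ in the same library (vertical axis), with 1 point for each of 9 late pregnancy (blue) and 6 lactation libraries (orange) and a black line at the mean. The mean for LIPE moves from -1.36 to -0.31, and the other means lie close together between states, with 1 lactation library of FABP4 at 4.36 below the others. LEP is left out for its 25 reads.

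Within late pregnancy some of the genes varied more between libraries than others. The level of ADIPOQ had a coefficient of variation of 50.1% over the 9 libraries, where counting error alone would give 6.92%. PLIN1 varied by 62.9%, CIDEC by 56.7% and PLIN4 by 44.1%, against 26.9%, 23.0% and 16.1% from counting. FABP4, LIPE and PNPLA2 varied by 20.3%, 17.3% and 17.2%, against 1.21%, 11.6% and 5.21% from counting.

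CIDEC followed ADIPOQ most closely in late pregnancy, with Pearson's r = 0.89 on log2(CPM + 1) over 9 libraries (permutation p = 0.0011, adjusted p = 0.0148 over 14 relations) and Spearman's rho = 0.78 (permutation p = 0.0172, adjusted p = 0.145). Without the 2 libraries farthest from the median of ADIPOQ, r was 0.92 over 7 libraries with an adjusted permutation p of 0.117. PLIN4 had r = 0.71 and rho = 0.75, PLIN1 r = 0.65 and rho = 0.58, and LIPE r = 0.55 and rho = 0.37, none of which passed the adjustment (permutation p adjusted to 0.119, 0.163 and 0.286 for r). LEP had r = 0.42 and rho = 0.56 (adjusted permutation p = 0.401 and 0.272). PNPLA2 and FABP4 ran the other way, with r = -0.73 and rho = -0.73 for PNPLA2 and r = -0.40 and rho = -0.43 for FABP4, again without passing it (adjusted permutation p = 0.119 and 0.401 for r). Without the 2 farthest libraries r was 0.73 for PLIN4, 0.48 for PLIN1, 0.74 for LIPE, 0.22 for LEP, -0.46 for PNPLA2 and -0.13 for FABP4. These values share the library scaling, and too few libraries stood on each sequencing lane named in the table (3 to 5 per state) to repeat them within a lane.

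In lactation, with 6 libraries, none of the 7 relations with ADIPOQ passed the adjustment. LIPE had r = 0.92 and rho = 0.83 (permutation p = 0.0208 and 0.0583, adjusted p = 0.119 and 0.204), but r was 0.28 without the 2 farthest libraries, so this value rests on them. PLIN4 had r = 0.61, PNPLA2 0.47, CIDEC 0.44, PLIN1 0.44, FABP4 -0.24 and LEP -0.27, with permutation p-values adjusted to between 0.401 and 0.700.

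**Figure D4:**
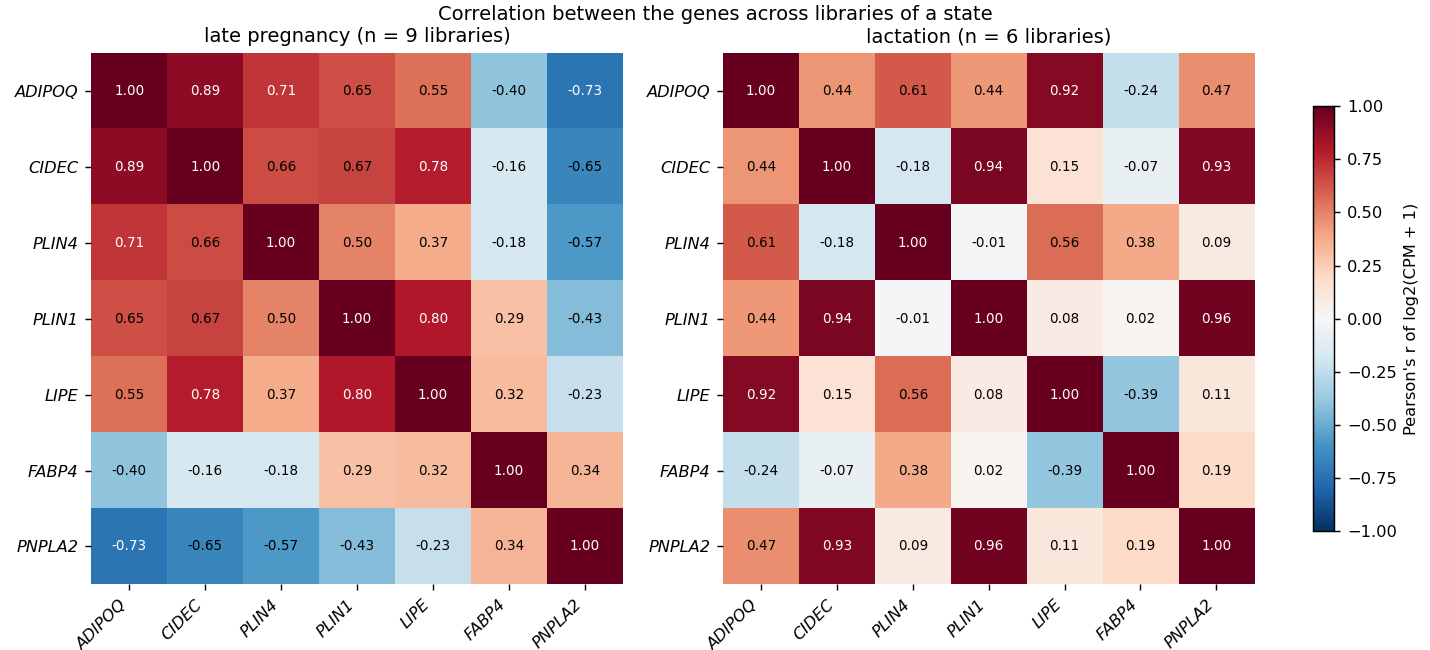
Pearson's r between 7 of the genes over the libraries of a state, on log2(CPM + 1), from -1 (blue) to 1 (red), for 9 late pregnancy libraries (left) and 6 lactation libraries (right). In late pregnancy ADIPOQ, CIDEC, PLIN4, PLIN1 and LIPE have positive values with each other and PNPLA2 has negative values with those 5, and in lactation PNPLA2 has no negative value.

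The 2 libraries with the most ADIPOQ also had the highest fibroblast sum of their state, but they did not stand alike in the luminal list. In pool 2 of the MM group of late pregnancy the summed level of 5 fibroblast markers was 639 CPM, the highest of the 9 libraries (range 359 to 639), and that of 6 luminal epithelial markers was 1417 CPM, the lowest (range 1417 to 1736). In pool 1 of the MM group of lactation the fibroblast sum was 379 CPM, again the highest of its state (range 231 to 379), while its luminal sum of 2509 CPM lay near the upper end (range 2290 to 2551). The late pregnancy pool was at neither end of its state in the endothelial (184 CPM), macrophage (159), myoepithelial (626) and T cell (38.8) sums. The lactation pool was highest of its state in the T cell sum (14.2 CPM). It was at neither end in the endothelial (131), macrophage (94.3) and myoepithelial (762) sums. The part of tissue makeup in the ADIPOQ levels was not tested.

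Markers of other cell types, listed here beside the fat cell genes, were mostly lower in lactation outside the epithelium. Over all genes tested, 35.2% were called lower and 33.1% higher, beside which the counts below stand. All 4 endothelial markers tested were lower in lactation (median log2 change -0.63), with a summed level of 156 to 209 CPM in late pregnancy and 91.9 to 132 in lactation. Of 5 fibroblast markers 4 were lower and none higher (median -0.45), and of 6 macrophage markers 4 were lower and none higher (median -0.71, summed level 142 to 191 against 70.5 to 101 CPM). All 4 T cell markers tested were lower (median -1.61). Of these, CD3D and CD8A passed the filter on their late pregnancy reads, CD8A with at most 4 reads in any lactation library. CD4 had too few reads for the test. Of 6 luminal epithelial markers 4 were higher (median 0.37), and 7 myoepithelial markers were split with 3 higher and 2 lower. The luminal count was 2 higher and 1 lower with upper quartile scaling, and with plain library sizes all 6 luminal and all 7 myoepithelial markers were lower. Defining markers were above 0 in every library for the luminal, myoepithelial, fibroblast, endothelial and macrophage lists, whereas of the 8 fat cell genes 7 were above 0 in all late pregnancy libraries and 5 in all lactation libraries, and of the 5 T cell markers 5 and 3. As a share of all exon reads, which takes no account of the milk protein genes, the 6 luminal markers held 0.243% to 0.290% in late pregnancy and 0.0989% to 0.121% in lactation, and the 8 fat cell genes 0.0434% to 0.0743% and 0.0146% to 0.0181%. The part of a changing cell makeup in the level of FABP4 or LIPE was not tested.

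Reads that fall within a gene but outside its annotated exons, mostly on introns, are a second measure of LIPE, PNPLA2 and FABP4, the only genes of the 8 with enough of them. In LIPE they moved like the exon reads, with a log2 change of 0.69 (SE 0.17, adjusted p = 0.0015). In PNPLA2 they were lower in lactation by a log2 change of -0.82 (SE 0.13, adjusted p = 9.4e-06), although its exon reads did not differ. In FABP4 the change was -0.28 (SE 0.14, adjusted p = 0.0988). Of the 10344 genes tested on such reads 29.0% were called lower and 29.0% higher, with a median change of -0.01.

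The ratio of intron to exon reads of the same library, a measure added after the intron changes had been seen, differed between the states in PNPLA2. In late pregnancy there were between 66.7 and 97.8 intron reads per 100 exon reads of PNPLA2, with a median of 78.0, and in lactation between 40.9 and 68.8, with a median of 47.2. The states overlapped only at the ends of their ranges. The log2 ratio fell by 0.68 from late pregnancy to lactation, with an exact permutation p of 0.00040 and an adjusted p of 0.0012 over 3 genes. Each leave-one-out value lay between -0.77 and -0.62, and all 15 kept the call. Over 5821 genes with at least 10 intron and 10 exon reads in every library the median change of this ratio was 0.06, and 3.69% of the genes had a lower value than PNPLA2. The ratio of LIPE changed by 0.02 (exact permutation p = 0.880) and that of FABP4 by -0.24 (exact permutation p = 0.0428, adjusted p = 0.0641). Whether these reads come from unspliced RNA, retained introns or exons missing from the annotation was not tested.

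Of the reads on exons, the share that crossed an exon junction was 87.4% in late pregnancy and 86.8% in lactation for FABP4, 49.2% and 54.7% for PNPLA2, 41.6% and 47.2% for LIPE, and 5% and 5.82% for ADIPOQ. The reads of ADIPOQ thus fell mostly inside single exons.

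No difference by the feed of the ewes' dams was detected within a state in the genes that could be tested, which were 7 of the 8 in late pregnancy (not LEP) and 5 in lactation (not PLIN1, LEP or CIDEC). Among the 9 late pregnancy libraries 0 of 13747 genes were called (0% of those tested) in edgeR's quasi-likelihood test, with 571 at an unadjusted p under 0.05, and DESeq2's likelihood ratio test called 20 genes but none of these 7. Among the 6 lactation libraries 1 of 11777 genes was called (0.00849%), with 896 at an unadjusted p under 0.05, and it was none of the 5. ADIPOQ came nearest in lactation, with means of 6.84 CPM in HM, 10.53 in MM and 5.23 in LM over 2 libraries each (unadjusted p = 0.0285 and adjusted p = 0.615 in edgeR). The interaction of state and feed gave 0 calls among 13345 genes (0%), with 876 at an unadjusted p under 0.05. PNPLA2 had the lowest p of the 6 genes there (unadjusted p = 0.0283, adjusted p = 0.740 in edgeR), as its log2 change was -0.44 in HM, 0.40 in MM and -0.14 in LM.

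LIPE was called higher in lactation within 2 of the 3 feed groups. These edgeR contrasts come from 1 model of all 15 libraries, so the groups share an estimate of the spread. Its log2 change was 0.80 in HM (SE 0.27, adjusted p = 0.0243) and 0.88 in MM (SE 0.23, adjusted p = 0.0047), but 0.42 in LM, where it did not pass the test (SE 0.26, adjusted p = 0.194). Between 46.6% (HM) and 51.0% (LM) of all genes were called within a group, with 47.4% in MM. A difference of the change of LIPE between the feed groups was not detected (edgeR interaction, adjusted p = 0.897). By the lane written in the column names, the difference of the mean log2(CPM + 1) of LIPE was 0.76 for lane 7 (4 and 3 libraries) and 0.38 for lane 8 (5 and 3 libraries). The sample descriptions say that every library ran on both lanes.

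Other genes of fat breakdown changed in both directions. Of 10 genes of the lipolysis machinery and of lipid droplet proteins 8 had enough reads, and 3 were lower and 4 higher in lactation, with a median log2 change of 0.26 beside -0.03 over all genes, of which 35.2% were lower and 33.1% higher. With plain library sizes 7 of the 8 were lower and 1 higher. MGLL, the last lipase of the pathway, fell from 13.9 ± 3.77 to 6.70 ± 2.20 CPM (log2 change -0.99, SE 0.20, adjusted p = 2.3e-04). G0S2, whose product inhibits the lipase made from PNPLA2, was lower with a change of -1.27, and ABHD5, whose product activates that lipase, was at 0.10 (SE 0.29, adjusted p = 0.760). Among droplet proteins PLIN2, which coats droplets in most cells and in milk fat, rose by 0.41, and CIDEB rose by 1.08. CIDEA, a relative of CIDEC that takes part in milk fat secretion by the epithelium, rose from 29.0 ± 7.58 to 462 ± 42.8 CPM, 15.9-fold. With plain library sizes PLIN2 and CIDEB turned to -1.50 and -0.80, while CIDEA stayed higher at 2.10.

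Receptors and signal carriers that control fat breakdown were likewise split, with 4 of 12 tested genes lower and 6 higher (median 0.14), beside 35.2% lower and 33.1% higher over all genes. With upper quartile scaling 6 were lower and 5 higher, and with plain library sizes 9 were lower and 2 higher. ADRB1, the beta-1 adrenergic receptor, which stimulates lipolysis, rose by 3.70, and ADRA2A, the alpha-2A receptor, which restrains it, fell by 2.83 on the log2 scale, from a highest count of 34 reads to a highest of 6 with 4 lactation libraries at 0. HCAR1, the lactate receptor, through which fat cells slow lipolysis, was lower with a change of -2.12, from a highest count of 92 reads to a highest of 12. PDE3B, the phosphodiesterase by which insulin lowers cyclic AMP, was lower with -1.21. ADRA2A, HCAR1 and PDE3B, all among the 4 lower genes, passed the filter on their late pregnancy reads. GNAI1, an inhibitory G protein subunit, rose by 3.64, and PRKAR2B, a regulatory subunit of protein kinase A, by 1.74. The rise of PRKAR2B turned to -0.16 with plain library sizes, whereas ADRB1 and GNAI1 stayed higher. ADRB3, the beta receptor most typical of fat cells, had at most 2 reads in any library.

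Of 9 tested transcription factors of fat cells 2 were lower and 2 higher (median -0.24), and 5 were not called, beside 35.2% lower and 33.1% higher over all genes. This count turned to 6 lower and 1 higher with upper quartile scaling, and to 8 lower and 0 higher with plain library sizes. PPARG, the master regulator of fat cell formation, was at 7.34 CPM in the median late pregnancy library and at 6.13 in the median lactation library, with a log2 change of -0.24 (SE 0.16, adjusted p = 0.189). CEBPA, its partner, was lower with -0.94, and KLF15, a factor of metabolic genes that responds to glucocorticoids, was higher with 1.65, which turned to -0.25 with plain library sizes.

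Genes of fat uptake and storage and of other secreted proteins of fat cells were lower in 4 and higher in 6 of 15 tested (median 0.37), again beside 35.2% and 33.1% over all genes. The split was 6 lower and 5 higher with upper quartile scaling and 12 lower and 3 higher with plain library sizes. LPL, the lipase that frees fatty acids from blood lipoproteins and that lactating mammary epithelium also makes, rose from 12.7 ± 4.37 to 1309 ± 119 CPM, or 103.5-fold. GPAM and ACSL1, which start triacylglycerol assembly and activate fatty acids, rose by 3.01 and 2.58 on the log2 scale. RBP4, which codes for the retinol carrier that fat cells secrete, was lower with -1.07, and it passed the filter on its late pregnancy reads. RETN, which codes for resistin, had at most 9 reads in a library and could not be tested.

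All 4 receptors of the hormones adiponectin and leptin were called, 2 in each direction. Over all genes 68.4% were called, 35.2% lower and 33.1% higher. ADIPOR1 rose by 0.61 and ADIPOR2 by 2.21, with 13.1 to 17.8 CPM of ADIPOR2 in late pregnancy and 61.1 to 76.8 in lactation. CDH13, which binds adiponectin on blood vessels, was lower with -0.86, and LEPR, the leptin receptor, with -0.42. With plain library sizes ADIPOR1 turned to -1.30, and ADIPOR2 stayed higher at 0.30. Of the genes of heat-producing fat cells, UCP1 had at most 1 read and PRDM16 at most 3 in any library. ELOVL3 had 15 reads in late pregnancy, 12 of them in 1 library, and none in lactation. The 2 genes that passed the filter went in opposite directions. DIO2, which activates thyroid hormone, rose by 4.88. PPARGC1A, a coactivator of mitochondrial genes, was lower with -1.80, from a highest count of 73 reads to a highest of 5 in lactation. PPARGC1A passed the filter on its late pregnancy reads.

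**Figure D5:**
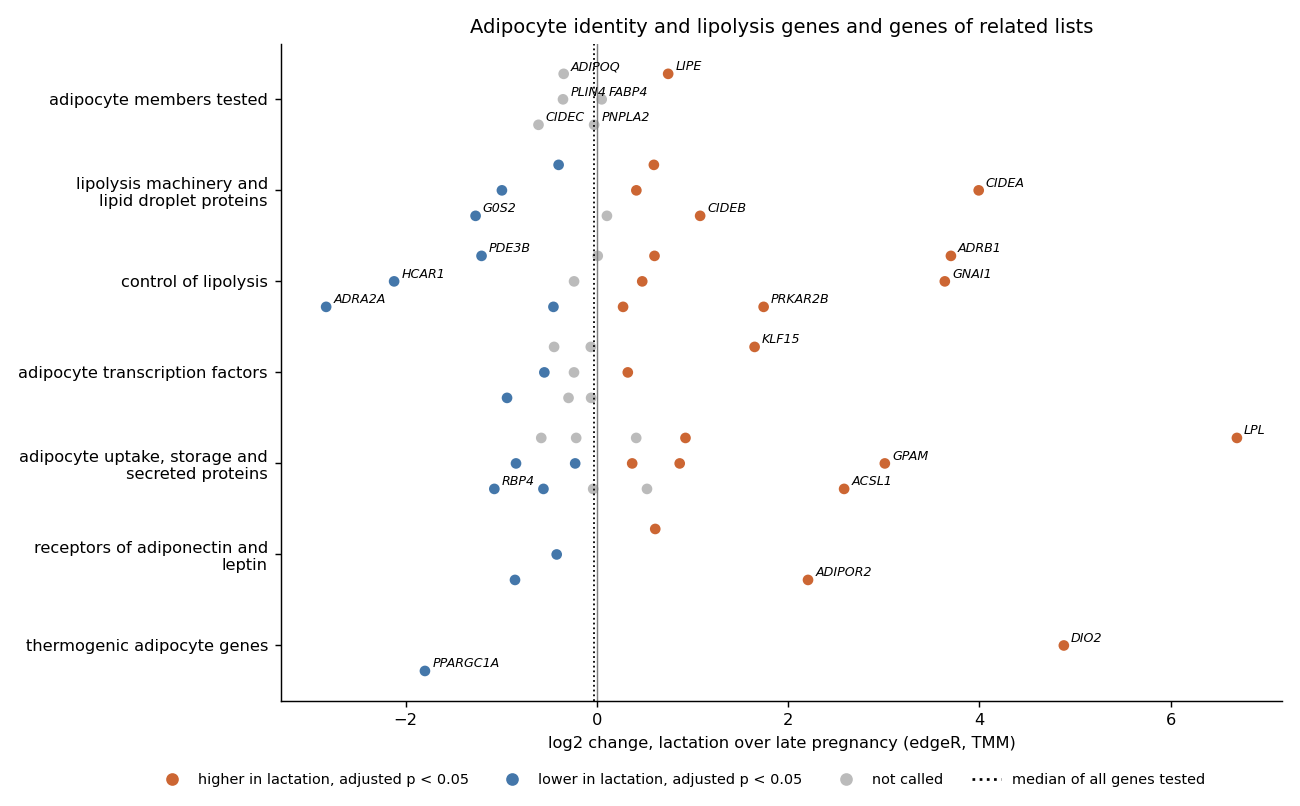
Log2 change from late pregnancy to lactation (horizontal axis) of the 6 fat cell genes tested and of the tested genes of 6 related lists, coloured by an adjusted p under 0.05 in edgeR with TMM scaling, with a dotted line at the median of all genes (-0.03). The 6 fat cell genes lie between -0.61 and 0.74, whereas the lists run from -2.83 for ADRA2A to 6.69 for LPL.

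The genes whose level most resembled that of the 6 tested genes in late pregnancy were sought among 12239 genes that averaged 1 CPM or more, by Pearson's r over 9 libraries with the mean of the standardized log2(CPM + 1) of the 6. Among the first 10 were ARHGAP26 (r = 0.92), COG7, SLC39A3, PRR3, CLSTN3, NOL6, ISG20L2, TRAFD1 and CHST2 (r = 0.85). Over all 12239 candidates r ran from -0.94 to 0.92 with a median of 0.0031, so the negative end was as far from 0 as these genes. In the 6 lactation libraries these 9 genes had r between -0.63 and 0.62 with that mean. Of the 6 genes themselves, LIPE had r = 0.91 with the mean they form and PNPLA2 r = -0.28, so that the mean does not stand for all of them.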

How the data were processed

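RNA of 15 pools of sheep mammary biopsies (9 late pregnancy, 6 lactation) was prepared with a TruSeq RNA kit and read on an Illumina instrument. The authors mapped paired reads with CLC Genomics Workbench. The submitters' processing notes name the assembly Oar_v3.1, and the study's methods name a later version, so the version behind the coordinates is not settled. The deposited table holds read counts on exons, junctions and whole genes, not normalized. The deposited RPKM values are exon reads per kilobase and 1000000 reads, also given after the authors' quantile normalization. The table also holds the fold change and p-values of the authors' Baggerly test, which were not used. Reads on genes were 7597938 to 19823166 in late pregnancy libraries and 10352962 to 25679416 in lactation libraries. Reads carry no molecular identifiers, and the spread between pools, which p-values measure, is the error given.

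Exon reads were tested with edgeR 4.0.16 in R 4.3.3 (filterByExpr by state, TMM, quasi-likelihood test, no covariates), with Benjamini-Hochberg adjustment over 13345 genes and calls at an adjusted p under 0.05. Intron reads are gene reads less exon reads. Ratios had 0.5 reads added and were tested by exact permutation, and CPM were correlated as log2(CPM + 1). DESeq2 1.42.0, limma 3.58.1 on quantile-normalized RPKM plus 1 on the log2 scale, other scalings and filters, and leaving out each library were tried. The edgeR step was also run on simulated counts that lacked the shift in milk protein reads, so that run does not bear on the scaling. The remaining work used Python 3.11.15 with scipy 1.17.1.

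The genes and lists were chosen with earlier results of these data known. All 8 genes are named. Of the 6 lists of related genes (not the cell type markers), every gene called with an absolute log2 change above 1 is named, with all adiponectin and leptin receptors and PPARG, CEBPA, LPL, PLIN2, MGLL and ABHD5. The untested genes LEP, PLIN1, ADRB3, RETN, UCP1, PRDM16 and ELOVL3 are given with their counts, the last 5 chosen after their values were seen. The 10 genes most alike were ranked by r, and 1 of them is not reported here.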

Additional observations from a re-analysis of the deposited data

Results flagged for a closer look

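Of 30 groups of values (each gene or ratio in each state), 5 held a library whose gap to its neighbour was past Dixon's 95% critical value, where chance gives about 1 in 20. ADIPOQ stood at 13.8 CPM in pool 1 of the MM group of lactation, above 4.76 to 7.74 in the other 5 libraries. In late pregnancy ADIPOQ stood at 20.6 CPM in pool 2 of the MM group, above 4.12 to 12.2 in the others. The same pool held CIDEC at 2.08 CPM, above 0.457 to 1.26. LEP stood at 0.342 CPM in pool 3 of the LM group of late pregnancy, on 9 reads, against 0 to 0.148. The log2 ratio of FABP4 to ADIPOQ was 4.36 in pool 1 of the MM group of lactation, below 5.62 to 5.97, and this is the library with the high ADIPOQ value.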

How the results depend on the processing

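LIPE kept its direction and call under 11 of 12 alternatives and in all 15 leave-one-out fits, and turned to -1.16 with library size as the sole scaling. That scaling gave 6 of the 6 genes lower and 0 higher, and 12705 genes lower and 352 higher over all genes. FABP4, called only with plain library sizes and in limma (0.52), was -1.86 with plain library sizes, -0.10 with upper quartile scaling, -0.00109 without a filter, -0.034 with at least 10 reads in every library, -0.067 with the replicate block and -0.16 with library sizes without 7 milk protein genes, a scaling chosen after seeing the data. Reads on whole genes called 1 gene lower, PNPLA2 (-0.32, adjusted p = 0.021), and limma called 2 higher, LIPE and FABP4. Leaving out 1 library gave -0.012 to 0.11 for FABP4, -0.090 to 0.059 for PNPLA2, 4575 to 4657 genes lower and 4316 to 4407 higher. With the ratios to ADIPOQ, leaving out 1 library gave 0 to 1 calls, -0.24 to 0.35 for PLIN1 and -0.026 to 0.20 for PLIN4, and a pseudocount of 1 read gave 0.20 for PLIN1. The intron to exon ratio of LIPE ran from -0.047 to 0.095, and that of FABP4 was called in 3 of 15 such fits.

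Pools share numbers across states, and the deviations of same-numbered pools had correlations of -0.05 to 0.12 over 6 pairs. Differently numbered pools were not compared, so these values cannot settle whether the numbers pair the pools. The replicate block left LIPE called (0.72, adjusted p = 0.0028) with 4280 genes lower and 4044 higher. In the ratios the paired block gave 0 calls, 0.88 for LIPE (exact permutation, adjusted p = 0.438, where a single ratio over 6 pairs cannot go below 0.219) and -0.085 for PLIN4. Without the 2 libraries farthest from the median of ADIPOQ, 0 correlations were called in late pregnancy, and r of FABP4 in lactation was 0.90. The causes of these moves were not tested, except that fewer libraries entered the last 2. Depth limits PLIN1, LEP, PLIN4 and CIDEC most, with 3 reads on LEP, 22 on PLIN1, 26 on CIDEC and 61 on PLIN4 in all of lactation.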
